A study of Mus musculus with 20 samples.

Results

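The genes described here are 7 markers of megakaryocytes and platelets: Ppbp, Pf4, Itga2b, Gp9, Gp1ba, Vwf and Treml1. They were found on a mouse microarray through the probe sets whose annotation gives exactly 1 gene symbol, and 6 of the 7 were measured, each by 1 probe set, among 19505 genes with such a probe set. Gp1ba had no probe set with its symbol in the annotation used and was not analysed here. The study profiled red cell precursors on 20 arrays in 10 groups of 2 arrays. In the cultured groups, lineage-negative marrow cells from wild-type female C57BL/6 mice were grown with erythropoietin, either alone (D1-Control, D2-Control) or, in D1-IL6 and D2-IL6, with 100 ng/mL of recombinant mouse IL-6 added at the start. The labels do not define D1 and D2 further. In the in vivo groups, erythroblasts came from mice aged 1 year that lacked both mDia1 and miR-146a (DKO) or from wild-type mice (DWT). They came from 2 mice per genotype at 3 points of maturation: proerythroblasts (stage I), the basophilic with the polychromatic cells (stage II+III), and orthochromatic cells (stage IV). The DKO mice were female, while the DWT arrays of each stage were replicate 1 from a male and replicate 2 from a female, so sex differs in part with genotype. The labels do not say how the stages were isolated or in which cells the genes were deleted.

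Megakaryocytes are the marrow cells that shed platelets, and they descend from progenitors that can also give rise to red cells. Both lineages depend on the transcription factor GATA1, and megakaryocyte genes are further driven by ETS factors such as FLI1. Ppbp and Pf4 encode the chemokines CXCL7 and CXCL4, which platelets store in alpha granules and release when activated. Vwf encodes von Willebrand factor, the adhesive protein that ties platelets to a damaged vessel and that endothelial cells also make. GP9 and GP1BA are subunits of the platelet receptor for von Willebrand factor, and Itga2b encodes CD41, the alpha chain of the fibrinogen receptor, which is also found on early blood progenitors. Treml1 encodes TLT-1, a receptor held in alpha granule membranes.

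The start sites of Ppbp and Pf4 lie 3917 bases apart on chromosome 5, and no other gene of the RefSeq table starts between them. Because these neighbours gave most of the differences described below, the 250 bases before each start site are shown, with those of Itga2b for comparison. The sequences are RefSeq's on GRCm38.p6, 5′ to 3′ on the gene's strand, at chr5:90768268-90768517 (plus strand), chr5:90772185-90772434 (plus strand) and chr11:102469884-102470133 (minus strand). Capitals mark matches, on either strand, to letters that ETS factors can bind, which are AGGAAG and the variant with C first, CGGAAG. None of the matches overlap.
Ppbp: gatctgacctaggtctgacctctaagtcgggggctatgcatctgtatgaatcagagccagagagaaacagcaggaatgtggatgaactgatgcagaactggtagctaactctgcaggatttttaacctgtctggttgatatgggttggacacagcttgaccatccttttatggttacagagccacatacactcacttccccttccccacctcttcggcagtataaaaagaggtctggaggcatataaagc
Pf4: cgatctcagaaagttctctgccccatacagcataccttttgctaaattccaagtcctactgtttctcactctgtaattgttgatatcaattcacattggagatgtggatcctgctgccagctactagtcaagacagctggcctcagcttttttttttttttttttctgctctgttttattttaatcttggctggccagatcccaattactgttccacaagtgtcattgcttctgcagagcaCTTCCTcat
Itga2b: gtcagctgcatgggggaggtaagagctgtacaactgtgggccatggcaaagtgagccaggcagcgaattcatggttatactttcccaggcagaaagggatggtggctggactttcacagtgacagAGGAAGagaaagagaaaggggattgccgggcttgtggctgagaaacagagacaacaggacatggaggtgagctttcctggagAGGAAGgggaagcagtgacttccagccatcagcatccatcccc
The Ppbp window held no such match. The Pf4 window held 1 ETS match, on the opposite strand at base -9 from the start, and the Itga2b window held 2, at bases -125 and -43. Gp9 had 1 ETS match at base -16 and Treml1 had none. Vwf had no window in the table. None of these 5 windows held, on either strand, a match to letters that GATA factors can bind, searched as AGATAA and the variant that ends in G, each also with T as the first letter. The window of Gp1ba, whose RNA was not analysed here, held 3 GATA matches, at bases -104, -51 and -23, and 1 ETS match at base -16. Over all 32851 windows of this length in the table, 39.2% held an ETS match and 26.5% a GATA match, so a match was common, and it describes letters, not a binding site.

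The values are log2 signals as the authors deposited them, and the level of 1 probe set says nothing about that of another. A probe set is called above background on an array where its signal exceeds the 95th percentile of the array's 23 background control probe sets, which lay between 7.25 and 7.74. Between 34.9% and 43.0% of probe sets were above background on each array. The 2 arrays of a group correlated at 0.97 to 0.994 over probe sets, except those of DKO-I at 0.903. Diaph1, the gene of mDia1, lay between 9.29 and 11.49 on the 6 DWT arrays and between 6.87 and 7.59, below background, on the 6 DKO arrays, although whether its probes lie in the deleted part is not given. The erythroblast marker list averaged 14.89 to 15.14 in the cultures and 13.14 to 15.99 in DWT, 12.46 to 15.77 in DKO-II+III and DKO-IV, but 9.06 to 9.82 in DKO-I, where 8 and 10 of its 12 genes were above background. Neutrophil markers averaged 16.50 to 16.70 in DWT-I and 15.76 to 17.26 in DKO-I, with all 10 genes above background on those 4 arrays. The endothelial list averaged 5.54 to 6.54 on all 20 arrays, with at most 2 of 10 genes above background on any array.

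Gp9 was above background on all 20 arrays, Pf4 and Itga2b on 19, and Vwf on 15. Ppbp was above background on 5 arrays and Treml1 on 4, so most values of these genes describe a signal that was not well above background. Over all arrays Pf4 had the widest range, from 6.92 to 13.26 with a median of 10.77. Ppbp ran from 5.64 to 9.34 (median 7.12) and Itga2b from 6.91 to 10.52 (median 9.27). Vwf ran from 6.93 to 9.51 (median 8.60), Gp9 from 8.09 to 9.95 (median 8.91) and Treml1 from 6.60 to 7.92 (median 7.27). These RNAs were read in samples of many cells, in which fewer cells of a type and less RNA per cell cannot be told apart.

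**Figure D1:**
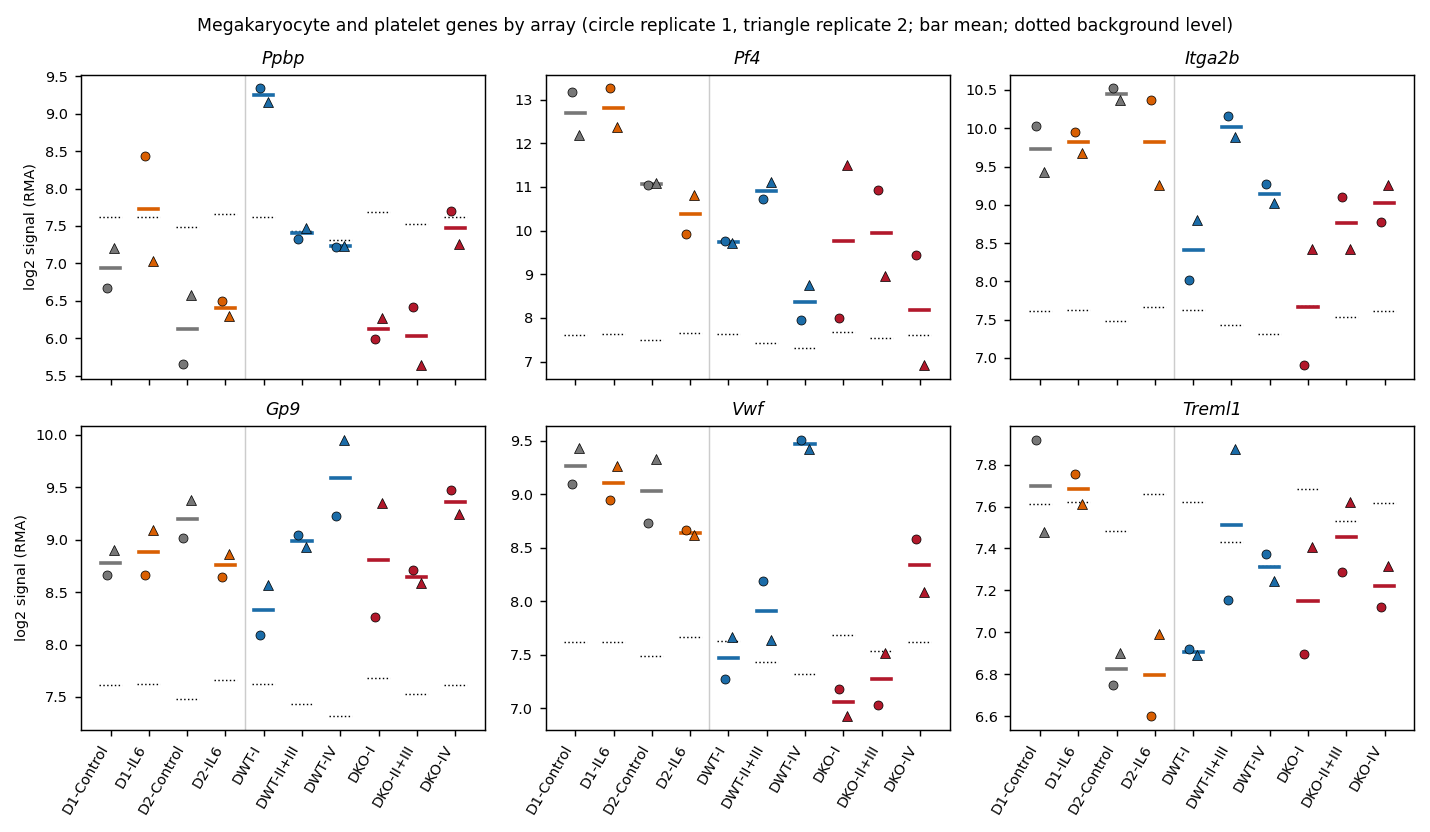
Deposited log2 signal (y axis) of the 6 measured genes, 1 panel each, on the 20 arrays by group (x axis), with a point for each array, a bar for the mean of the 2 arrays and a dotted line for the background level. Ppbp stands above background on both arrays only in DWT-I, at 9.34 and 9.16, and the highest Pf4 signals are those of the D1 cultures, between 12.19 and 13.26.

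Ppbp was highest in DWT-I, labelled as wild-type proerythroblasts, at 9.34 and 9.16 (mean 9.25 ± 0.12, SD, n = 2). In the same stage of DKO it was at 5.99 and 6.27, below background on both arrays. The neutrophil list averaged 16.50 and 16.70 in DWT-I and 17.26 and 15.76 in DKO-I, and which cells held the Ppbp RNA was not tested. In DWT, Ppbp was at 7.33 and 7.48 at stage II+III and at 7.23 and 7.24 at stage IV. The DWT-I arrays thus stood clear of every other group, with no overlap. In DKO, Ppbp was at 6.42 and 5.64 at stage II+III and at 7.70 and 7.25 at stage IV. In the cultures Ppbp was at 6.67 and 7.21 in D1-Control, 8.43 and 7.03 in D1-IL6, 5.66 and 6.58 in D2-Control, and 6.49 and 6.30 in D2-IL6. Among the cultured arrays only replicate 1 of D1-IL6 was above background. Below DWT-I the group means ran from 7.73 (D1-IL6) to 6.03 (DKO-II+III).

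Pf4 had its highest signals in the D1 cultures, at 13.18 and 12.19 in D1-Control and 13.26 and 12.37 in D1-IL6. The D2 cultures were lower, at 11.05 and 11.08 with erythropoietin alone and 9.93 and 10.82 with IL-6. The D1 and D2 arrays did not overlap. In DWT, Pf4 was at 9.76 and 9.70 at stage I, 10.71 and 11.11 at stage II+III and 7.96 and 8.75 at stage IV. The 2 DKO arrays of a stage differed by more than any of these groups, at 8.01 and 11.49 at stage I, 10.92 and 8.95 at stage II+III and 9.44 and 6.92 at stage IV. These gaps of 3.48, 1.97 and 2.51 leave the in vivo Pf4 comparisons a standard error of 1.10. In order of group means, D1-IL6 (12.81) and D1-Control (12.68) overlapped and stood clear of the 6 groups from D2-Control (11.06) to DWT-I (9.73), which overlapped as neighbours, and DWT-IV (8.35) and DKO-IV (8.18) were lowest.

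Vwf was highest in DWT-IV, at 9.51 and 9.42. It was at 9.10 and 9.43 in D1-Control, 8.94 and 9.26 in D1-IL6, 8.73 and 9.32 in D2-Control and 8.66 and 8.62 in D2-IL6. In the younger DWT stages it was close to background, at 7.27 and 7.67 at stage I and 8.18 and 7.64 at stage II+III. The DKO values were 7.18 and 6.93 at stage I, 7.03 and 7.51 at stage II+III and 8.58 and 8.09 at stage IV. The 4 cultured groups and DWT-IV therefore lay above all other groups, with the lowest of these 10 arrays at 8.62 and the highest of the rest at 8.58. Between neighbours in the order of group means, D2-Control (9.03) and D2-IL6 (8.64) did not overlap, and neither did D2-IL6 and DKO-IV (8.33).

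Itga2b was highest in D2-Control, at 10.52 and 10.37, and was at 10.37 and 9.26 in D2-IL6. In D1 it was at 10.03 and 9.43 with erythropoietin alone and at 9.95 and 9.68 with IL-6. In DWT it was at 8.01 and 8.81 at stage I, 10.16 and 9.88 at stage II+III and 9.27 and 9.02 at stage IV. The middle stage was thus the highest in the wild type, without overlap. In DKO the values were 6.91 and 8.42, 9.10 and 8.42, and 8.78 and 9.26 over the same stages, and the 6.91 of DKO-I replicate 1 was the only Itga2b value below background.

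Gp9 varied least of the 4 genes that were above background on most arrays. Its cultured values were 8.66 and 8.90 in D1-Control, 8.66 and 9.09 in D1-IL6, 9.01 and 9.38 in D2-Control and 8.64 and 8.87 in D2-IL6. In DWT it was at 8.09 and 8.57 at stage I, 9.05 and 8.93 at stage II+III and 9.22 and 9.95 at stage IV. In DKO it was at 8.26 and 9.35, 8.71 and 8.59, and 9.47 and 9.25 over the same stages. In order of group means, from DWT-IV (9.59) to DKO-II+III (8.65), each group overlapped the next, and only the last place, DWT-I (8.33), was clear of its neighbour.

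Treml1 was above background on 1 array each of D1-Control, D1-IL6, DWT-II+III and DKO-II+III, at 7.92, 7.76, 7.88 and 7.62. The other array of those groups was at 7.48, 7.61, 7.15 and 7.29. The remaining 12 arrays lay between 6.60 and 7.41, and every pair of neighbours in the order of group means overlapped.

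Differences were tested with limma, in 1 fit for the 8 cultured arrays and 1 for the 12 in vivo arrays, 2-sided, with Benjamini-Hochberg adjustment over 19572 probe sets, and an adjusted p under 0.05 counts as passing. Each difference is a log2 difference between group means with its standard error (n = 2 arrays a group). These p-values measure only the spread between the arrays, which may in part be technical. Where a passing difference had 1 group below background on both arrays, it is also given as a bound. The bound puts the background level in place of a lower signal. None is given where the other group also had an array below background.

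None of the 6 genes passed for IL-6 against control at either time. At D1, 0 of 6 passed in limma, beside 0.0511% of all probe sets tested. An unadjusted p under 0.05 was found for 0 of 6, beside 554 of all 19572 probe sets. The D1 differences, IL-6 minus control, ran from -0.16 ± 0.30 (Vwf) to 0.79 ± 0.46 (Ppbp). At D2, 0 of 6 passed, beside 3.31% of all, and 0 had an unadjusted p under 0.05, beside 2808 of the 19572. The D2 differences of Pf4, Itga2b, Gp9 and Vwf were -0.69 ± 0.40, -0.63 ± 0.37, -0.44 ± 0.29 and -0.39 ± 0.30, with limma's adjusted p from 0.483 to 0.623. Those of Ppbp and Treml1 were 0.28 ± 0.46 and -0.03 ± 0.28. The median of the 6 genes at D2 was -0.42, against -0.07 over all probe sets. The change of the IL-6 difference from D1 to D2 passed for 0 of 6 genes, beside 1.19% of all. Of the 6, 0 had an unadjusted p under 0.05, beside 1567 of the 19572 probe sets.

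Between D1 and D2, Pf4 fell in both media. Treml1 passed in both media and Ppbp in the IL-6 cultures, at signals near background, while Gp9, Itga2b and Vwf did not pass. This was a comparison in which much of the transcriptome moved: 43.2% of probe sets passed in the control cultures and 33.2% in the IL-6 cultures, so 2 and 3 of 6 genes is a share near the background. Pf4 fell by 1.62 ± 0.40 in control cultures (3.07-fold, limma's adjusted p = 0.00789) and by 2.44 ± 0.40 with IL-6 (5.41-fold, adjusted p = 0.000806). Treml1 fell by 0.87 ± 0.28 (adjusted p = 0.03) and 0.89 ± 0.28 (adjusted p = 0.0344) in limma. Both D2 groups and 1 of the 2 arrays of each D1 group were below background, so no bound is given. Ppbp fell by 1.34 ± 0.46 with IL-6 (limma's adjusted p = 0.0451). Only 1 of the 2 D1 arrays and neither D2 array was above background, so no bound is given. It did not pass after quantile normalization, with no intensity trend or with only the groups compared (adjusted p = 0.0587, 0.0608 and 0.0538). The Ppbp difference was -0.63 without D1-IL6 replicate 1 (adjusted p = 0.364) and -2.04 without D1-IL6 replicate 2 (adjusted p = 0.0101), and its adjusted p was 0.102 without D2-IL6 replicate 1 and 0.134 without D2-IL6 replicate 2.

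The receptor genes and Vwf did not pass over this step. From D1 to D2 in control cultures the differences were 0.72 ± 0.37 for Itga2b, 0.42 ± 0.29 for Gp9 and -0.24 ± 0.30 for Vwf, with limma's adjusted p of 0.137, 0.262 and 0.542. With IL-6 they were 0.00 ± 0.37, -0.12 ± 0.29 and -0.47 ± 0.30. These values depended on the scaling, since after quantile normalization of the tested probe sets the control differences were 1.37 for Itga2b and 1.16 for Gp9, which passed (adjusted p = 0.0187 and 0.00827), and 0.56 for Vwf, of the opposite sign. Under that scaling Pf4 still fell, by 1.18 (adjusted p = 0.0396), and Treml1 did not pass (adjusted p = 0.102). Quantile normalization moved the median of all probe sets from 0.17 to 0.03. In control cultures the adjusted p was 0.0835 for Pf4 without D1-Control replicate 1, and that of Treml1 was between 0.0563 and 0.201 without D1-Control replicate 1, D2-Control replicate 1 or D2-Control replicate 2. With IL-6 that of Treml1 was between 0.106 and 0.168 without D1-IL6 replicate 1, D1-IL6 replicate 2 or D2-IL6 replicate 1. In 1 fit of all 20 arrays the Pf4 falls did not pass (adjusted p = 0.209 and 0.0848). Markers of other cells moved over the same step: the mast cell and basophil list averaged 7.81 to 8.54 in D1 and 5.44 to 6.06 in D2, with 4 of 8 genes lower in both media, and the stem and progenitor list averaged 7.83 to 8.15 in D1 and 5.92 to 6.80 in D2. Of 10 monocyte and macrophage markers 7 were lower in control cultures, against 1 lower and 3 higher with IL-6. Their part in the fall of Pf4 was not tested.

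**Figure D2:**
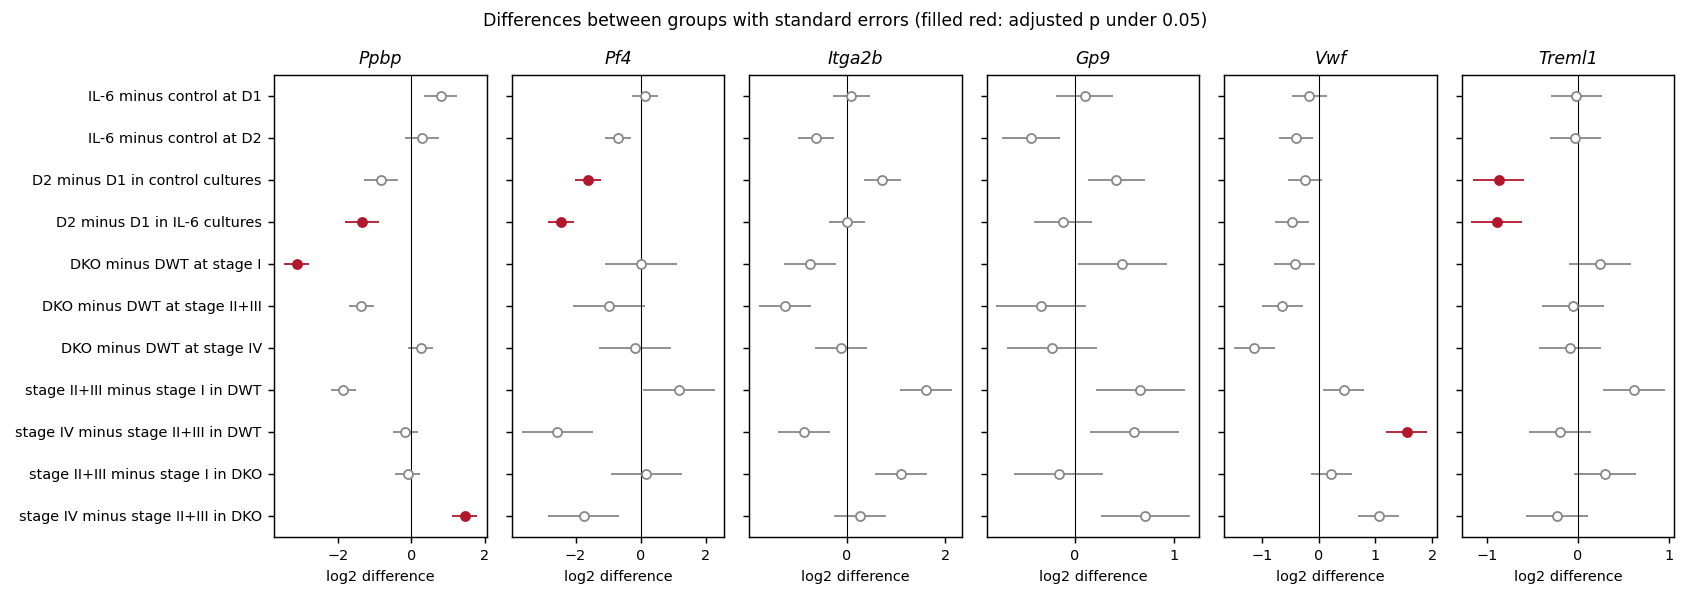
Log2 difference between groups (x axis, scaled separately for each gene) of the 6 measured genes, 1 panel each, with the comparisons in rows, bars for 1 standard error and filled red points for an adjusted p under 0.05. Pf4 lies at -1.62 and -2.44 between D1 and D2, and Ppbp lies at -3.12 between DKO and DWT at stage I.

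Loss of mDia1 and miR-146a was accompanied by 1 difference among the 6 genes, lower Ppbp at stage I. Its mean was 6.13 ± 0.20 (SD, n = 2) in DKO-I against 9.25 ± 0.12 in DWT-I, a difference of -3.12 ± 0.34 (limma's adjusted p = 0.0044), or at least 2.97-fold with the DKO arrays set to background. Of all probe sets 0.445% passed at this stage. The difference was -2.98 without DKO-I replicate 1 (adjusted p = 0.000546) and -3.26 without DKO-I replicate 2 (adjusted p = 0.00591). Without DWT-I replicate 1 or replicate 2 the difference was -3.03 and -3.21 and did not pass. With only these 4 arrays in the fit it did not pass (adjusted p = 0.346), and neither did any other probe set. At the same stage 10 of 12 erythroblast markers were lower in DKO, with a median difference of -3.53, and the eosinophil list averaged 12.49 and 12.62 in DWT-I but 9.88 and 7.12 in DKO-I. Of 8 T and NK cell markers 2 were higher in DKO. Their part in the Ppbp difference was not tested.

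The other chemokine, transcribed from the next gene, did not pass: Pf4 differed by 0.02 ± 1.10 at stage I, with the DKO arrays at 8.01 and 11.49 on either side of the DWT values. Gp9, Vwf, Itga2b and Treml1 differed by 0.48 ± 0.45, -0.42 ± 0.36, -0.75 ± 0.53 and 0.24 ± 0.34 at stage I, and none passed. At stage II+III 0 of 6 genes passed in limma, beside 0.618% of all probe sets. Of all 19572 probe sets 1816 had an unadjusted p under 0.05, as did 2 of the 6 genes. These were Ppbp, at -1.37 ± 0.34 (limma's adjusted p = 0.131), and Itga2b, at -1.26 ± 0.53 (adjusted p = 0.481). At stage IV 0 of 6 passed, beside 0.046% of all. Of all 19572 probe sets 1588 had an unadjusted p under 0.05, as did 1 of the 6 genes. That gene was Vwf, whose DKO-IV mean of 8.33 was below the DWT-IV mean of 9.46, by -1.13 ± 0.36 (adjusted p = 0.438). Whether the genotype difference changed between stages was tested too. For Ppbp the change from stage I to stage II+III was 1.75 ± 0.48 (limma's adjusted p = 0.799) and that from stage II+III to stage IV was 1.62 ± 0.48 (adjusted p = 1.0). Ppbp was below background on all DKO arrays of stages I and II+III, which limits what the sizes of these changes show. Neither change passed for any of the 6 genes, nor for any probe set (0.0% in both, with 942 and 662 probe sets at an unadjusted p under 0.05).

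Across maturation, Vwf rose from stage II+III to stage IV in DWT, and Ppbp passed over the same step in DKO, at signals near background. The Vwf difference was 1.55 ± 0.36 (2.94-fold, limma's adjusted p = 0.0379), beside 5.16% of all probe sets that passed, of which 30.8% were higher, or 44.9% after quantile normalization. With the mouse as a replicate block its adjusted p was 0.0612. Without any 1 of the 4 arrays the difference was between 1.28 and 1.83 and did not pass. In DKO Vwf was at 1.06 ± 0.36 over that step (adjusted p = 0.107), or at least 0.80 given the background at stage II+III. The Ppbp difference in DKO was 1.45 ± 0.34 (limma's adjusted p = 0.0283), beside 7.77% of all. Both DKO-II+III arrays and 1 of the 2 DKO-IV arrays were below background, and no rise over background could be bounded. Its adjusted p was 0.169 without DKO-IV replicate 1, 0.0991 without DKO-IV replicate 2 and 0.175 without DKO-II+III replicate 2. In DWT, Ppbp was at -0.17 ± 0.34 over the same step. The neutrophil list fell from 11.88 and 13.58 to 7.98 and 10.47 in DWT and from 15.82 and 15.80 to 12.95 and 12.44 in DKO between these stages, and its part in these differences was not tested.

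The earlier step gave no passing gene. From stage I to stage II+III in DWT, 0 of 6 passed in limma, beside 0.245% of all probe sets. Of all 19572 probe sets 1457 had an unadjusted p under 0.05, as did 2 of the 6 genes. Ppbp was at -1.85 ± 0.34 (adjusted p = 0.0655) and Itga2b at 1.61 ± 0.53 (adjusted p = 0.397). With only these 4 arrays in the fit both passed, with adjusted p of 0.00854 and 0.0343. In DKO, 0 of 6 passed, beside 0.327% of all, with Itga2b at 1.09 ± 0.53. There 0 of 6 had an unadjusted p under 0.05, beside 2038 of all 19572 probe sets. Pf4 was at -2.56 ± 1.10 (adjusted p = 0.21) from stage II+III to stage IV in DWT and at -1.75 ± 1.10 (adjusted p = 0.393) in DKO.

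**Figure D3:**
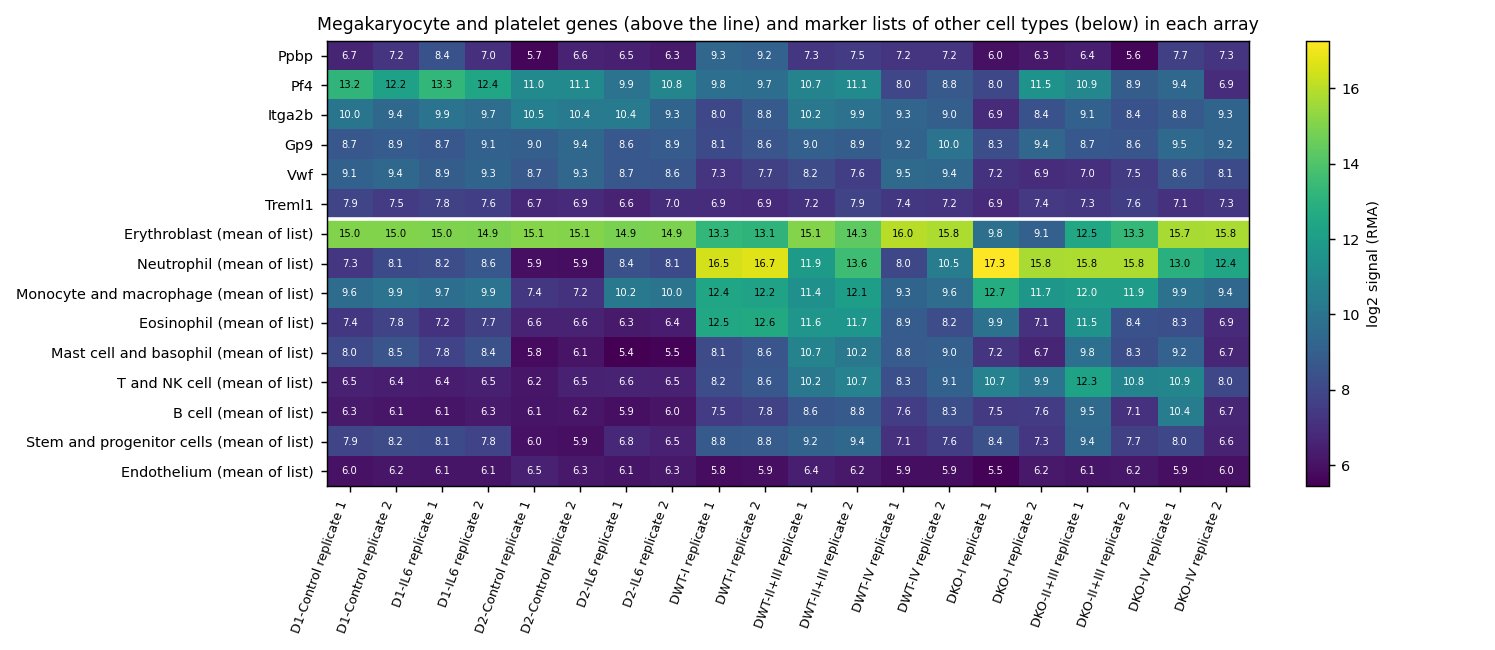
Heat map of the log2 signal of the 6 genes (rows above the line) and of the mean log2 signal of marker lists for other cell types (rows below it) on each array (columns), with the value printed in each cell and the colour bar in log2 units. The erythroblast list is lowest in DKO-I, at 9.82 and 9.06, and the neutrophil list is highest in DKO-I replicate 1, at 17.26.

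Of 50 further megakaryocyte and platelet genes listed by role, 44 were measured. Of these, 12 were above background on all 20 arrays, 23 on some, and 9 on none: Gp5, Mpig6b, F2rl3, Tbxa2r, Cxcl5, Tubb1, Myl9, Alox12 and Slc6a4. Several of those 9 mark late megakaryocytes and platelets, among them Tubb1, the platelet beta-tubulin (5.66 to 7.04), and Gp5, a subunit of the von Willebrand factor receptor (3.85 to 5.58). Itgb3, the integrin beta chain that pairs with CD41, was between 5.5 and 9.81 and above background on 17 arrays. Selp, the alpha granule adhesion protein P-selectin, was above background on 13, between 4.75 and 11.20. The transcription factors Nfe2 (9.43 to 14.90) and Fli1 (7.47 to 12.36) were above background on all 20.

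Gp6, the platelet collagen receptor, was above background on the 4 D2 arrays and on no other. It was at 11.99 and 11.90 in D2-Control and 11.77 and 11.52 in D2-IL6, against 4.17 to 5.47 elsewhere. From D1 to D2 it rose by 6.73 ± 0.30 in control cultures (limma's adjusted p = 8.04e-08, at least 4.33 over background) and by 6.64 ± 0.30 with IL-6 (at least 4.02). Fcer1g, the signalling chain that pairs with GP6, differed by -2.83 ± 0.30 in control cultures (at least 4.41-fold lower). With IL-6 Fcer1g did not fall. The 4 genes of the list that holds it and Gp6 had differences of 0.14 to 6.64 there, and only Gp6 passed.

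Over that step 26 of the 44 genes passed in control cultures, 12 higher and 14 lower, beside 43.2% of all probe sets, with a median of 0.05 against 0.17 over all. With IL-6, 20 passed, 11 higher and 9 lower, beside 33.2% of all. Among the transcription factors, Nfe2, needed for platelet release, rose by 3.20 ± 0.16 in control cultures and 3.05 ± 0.16 with IL-6. The erythroblast list averaged 14.89 to 15.14 in these cultures, and which cells held the Nfe2 RNA was not tested. In the transcription factor list 8 of the 10 measured passed in control cultures, 3 higher and 5 lower. Plek, a substrate of protein kinase C in platelets, rose by 4.04 in control cultures and 3.91 with IL-6. Of 9 granule protein genes 7 passed in control cultures, 3 higher and 4 lower, with F13a1, the A chain of factor XIII, at -3.09 (at least 3.41-fold lower). With IL-6, 5 of the 9 passed, 2 higher and 3 lower. The D2 minus D1 difference of F13a1 was 2.61 higher with IL-6 than in control cultures. Itga6, a laminin receptor chain, was the 1 gene of 4 in the receptor and integrin list that passed, at -3.38. With IL-6 the 6 largest passing differences also held Selp at -3.18 (at least 2.03-fold lower), Gata2 at 2.68 and Thbs1, the alpha granule protein thrombospondin, at 2.51.

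**Figure D4:**
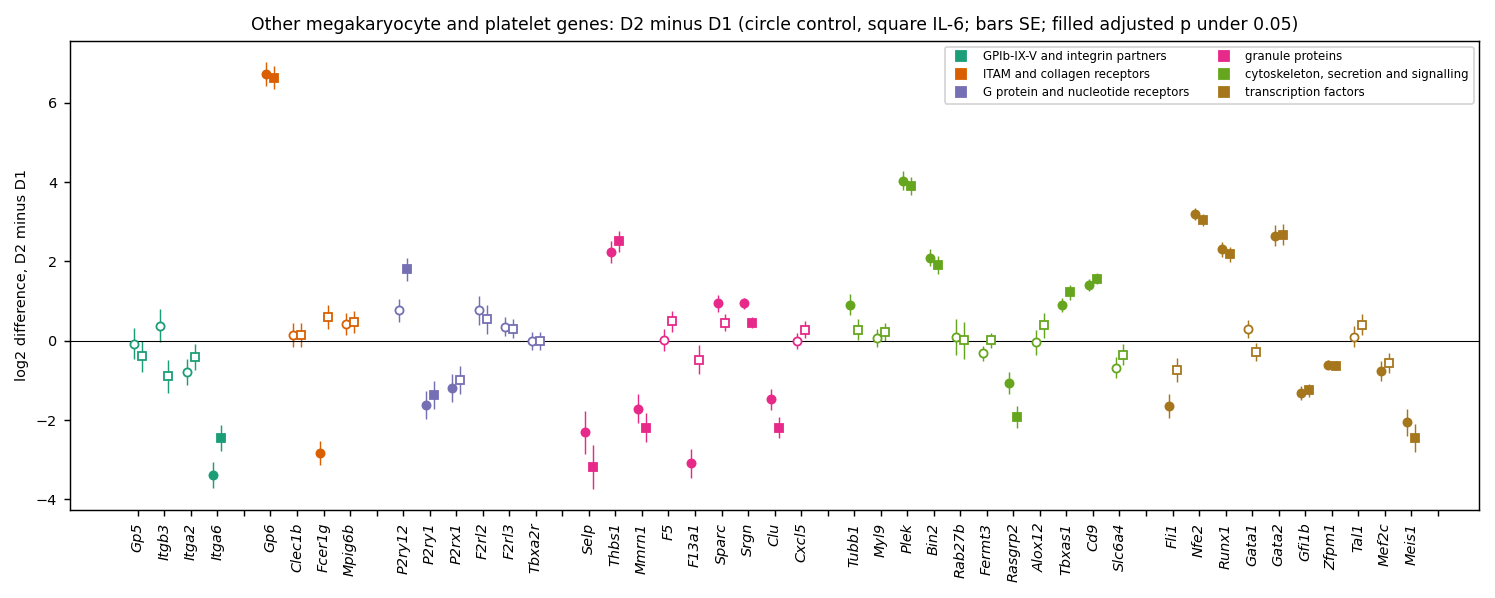
Log2 difference D2 minus D1 (y axis) of the 44 further megakaryocyte and platelet genes (x axis, coloured by role) in control (circles) and IL-6 cultures (squares), with bars for 1 standard error and filled points for an adjusted p under 0.05. Gp6 lies highest, at 6.73 and 6.64, and passing genes lie on both sides of 0 in both media.

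The other comparisons moved fewer of the 44. With IL-6, 0 passed at D1 in limma, and 3 rose at D2: F13a1 by 4.0 (at least 2.68), Fcer1g by 3.79 (at least 3.10) and P2ry12, the platelet ADP receptor, by 1.71 (at least 1.04), beside 3.31% of all probe sets. P2ry12 did not pass in 1 fit of all 20 arrays (adjusted p = 0.0614). F13a1 and Fcer1g are also myeloid genes, and the monocyte and macrophage list averaged 7.16 to 7.37 in D2-Control and 10.00 to 10.20 in D2-IL6, with 7 of 10 genes higher, while the neutrophil list averaged 5.86 to 5.90 and 8.08 to 8.36. Their part in these differences was not tested. The IL-6 difference of F13a1 and Fcer1g was larger at D2 than at D1, by 2.61 and 3.43, and both changes passed. In DKO at stage I, Zfpm1, the GATA1 partner FOG1, was lower, at -5.58 ± 0.91 (limma's adjusted p = 0.0276). Gfi1b, the gene of a transcriptional repressor, was at -2.73 ± 0.45 (adjusted p = 0.0304). Both are also expressed in red cell precursors. With a replicate block neither passed (adjusted p = 0.133 and 0.139), nor without either DWT-I array (adjusted p from 0.22 to 0.338), and Gfi1b did not pass after quantile normalization (adjusted p = 0.0888). Both rose from stage I to stage II+III in DKO, by 6.08 and 3.04. Without DKO-II+III replicate 2 neither of these rises passed (adjusted p = 0.249 and 0.238), and that of Gfi1b did not pass with the replicate block (adjusted p = 0.0566) or after quantile normalization (adjusted p = 0.0553). With only the groups compared in the fit, none of these 4 differences passed. At stages II+III and IV no gene of the 44 passed between the genotypes.

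From stage II+III to stage IV, 10 of the 44 passed in DWT, 1 higher and 9 lower, beside 5.16% of all probe sets, 311 higher and 699 lower. In DKO 12 passed, 4 higher and 8 lower, beside 7.77% of all, 804 higher and 716 lower. The 6 largest in DWT were F13a1 (-4.33), Fli1 (-3.29), the transcription factor gene Meis1 (-3.17, at least 6.34-fold lower), Rasgrp2 (-3.02), Fcer1g (-2.87) and the tetraspanin gene Cd9 (-2.78). In DKO they were Cd9 (-3.06), F5, the gene of coagulation factor V (-3.03, at least 4.57-fold lower), Nfe2 (3.0), Rasgrp2 (-2.65), Srgn (-2.47) and Gata1 (2.44). With the replicate block F13a1 (adjusted p = 0.057) and Meis1 (adjusted p = 0.067) in DWT and Rasgrp2 (adjusted p = 0.0584) in DKO did not pass. After quantile normalization F13a1 (adjusted p = 0.0533), Meis1 (adjusted p = 0.0585) and Rasgrp2 (adjusted p = 0.067) in DWT and Rasgrp2 in DKO (adjusted p = 0.0963) did not pass. Each of the 6 in DWT failed to pass in at least 3 of the 4 fits that left out 1 of the arrays compared, and each of the 6 in DKO in at least 1. Markers of other blood cells fell over the same step in DWT, with 6 of 10 neutrophil genes and 5 of 10 monocyte and macrophage genes lower, and in DKO with 6 of 10 and 3 of 10 lower. Of 12 erythroblast markers, a list that also holds Gata1, 2 were higher in DWT and 11 in DKO, and none was lower. Their part in the differences of these genes was not tested.

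As a description over arrays that share groups and material, the highest Pearson correlations between the 6 genes over the 20 arrays were 0.596 for Itga2b and Vwf, 0.498 for Pf4 and Itga2b, and 0.476 for Gp9 and Vwf, and that between the neighbours Ppbp and Pf4 was 0.02. Without DKO-I replicate 2 the first 3 were 0.566, 0.553 and 0.624, so that Gp9 and Vwf became the highest pair, and Ppbp and Pf4 were at 0.05. Among 9724 genes above background on at least 2 arrays, those most like each in pattern were Akap11 (0.753), Lcorl (0.724) and Oosp1 (0.706) for Ppbp, and Pcbp2 (0.908), Dcaf4 (0.868) and Nap1l1 (0.837) for Pf4. For Vwf they were Tinagl1 (0.93), Natd1 (0.928) and Cnnm2 (0.926). For Itga2b they were Rab27b (0.826), Cenpv (0.824) and Blvrb (0.797), of which only Rab27b, a GTPase of platelet granule release, is in the lists used here. For Gp9 they were Cnot4 (0.836), Sp4 (0.835) and Myo1d (0.825), and for Treml1 Fem1b (0.841), Prorp (0.83) and Tspan13 (0.811). Since Ppbp was above background on 5 of the 20 arrays and Treml1 on 4, their correlations rest mostly on signals below background.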

How the data were processed

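RNA from 20 samples (700 pg of total RNA each, amplified with a Pico kit, with no technical replicates per the labels' protocols) was hybridised to mouse Clariom S arrays. The values used are log2 signals that the authors deposited, from 2.88 to 19.28. The submitters' processing notes name Affymetrix Expression Console and RMA, without versions, and the array's genome build is not given in the sources used here. Of 28846 probe sets, the 19572 with exactly 1 symbol were tested, for 19505 genes, 55 of them with several probe sets, of which the 1 with the highest mean was to stand for a member. Values were not rescaled. Group means were fitted by lmFit of limma 3.58.1 (R 4.3.3) and moderated by eBayes, whose prior followed mean intensity, separately for the 8 cultured and 12 in vivo arrays, after the procedure was tested on simulated data. With 2 arrays a group, their number limits the precision.

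The named genes are all 7 members, up to 6 passing genes of the other 44 with the largest difference in each comparison, Itgb3, Gp6, Gp5, Tubb1, Selp, Nfe2 and Fli1, and the 3 genes most like each member. An item that the rule also names is not reported here. Gp6's partner Fcer1g and the 9 genes above background on no array are named where they came up. The members and lists were chosen with earlier results of these data known. Alternatives were quantile normalization, median centring, no intensity trend, a filter on dim probe sets, all 20 arrays in 1 fit, only the groups compared, a replicate block of the DWT mice (a term for the male), and each array left out. No scan date or batch is given in the labels.

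Same-numbered DWT arrays come from the same mouse, since the labels give replicate 1 as male and replicate 2 as female at each stage. Their deviations from the group means correlated at 0.099, 0.021 and 0.124 between pairs of stages, over probe sets. For DKO the labels do not tie arrays of different stages to mice and the replicate numbers follow only the order of submission, so they were not used to pair arrays. The correlations there were 0.296, 0.198 and 0.375.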

Additional observations from a re-analysis of the deposited data

How the results depend on the processing

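No result changed direction past the threshold under any of the alternatives. The number of the 6 genes that passed stayed within 1.5 times of the reported count except as follows. With all 20 arrays in 1 fit it was 1 instead of 2 for D2 against D1 in control cultures, 1 instead of 0 for DWT stage II+III against I, and 2 instead of 1 for DKO stage IV against II+III. With only the groups compared it was 0 instead of 1 for DKO against DWT at stage I (0 instead of 87 of all probe sets), 2 instead of 0 for DWT stage II+III against I (911 instead of 48), 2 instead of 1 for DWT stage IV against II+III (2788 instead of 1010) and 0 instead of 1 for DKO stage IV against II+III (1923 instead of 1520). Quantile normalization gave 1 instead of 3 for D2 against D1 with IL-6. The replicate block of the DWT mice gave 0 instead of 1 for DWT stage IV against II+III (688 instead of 1010 probe sets) and changed the call of no other member. Leaving out 1 array gave 0 to 2 passing genes for D2 against D1 in control cultures, 1 to 2 with IL-6, 0 to 1 for DKO against DWT at stage I, 0 for DWT stage IV against II+III, 0 to 1 for DKO stage IV against II+III, and 0 for each other comparison. The cause of these changes was not tested. A fit of only 2 groups estimates the spread from 4 arrays, and such fits called more probe sets in some comparisons and fewer in others. Among 115 single-gene results, 1281 alternatives were run, of which 1176 kept the call, 98 lost it and 7 gained it. Signal over background limits Ppbp and Treml1, which were above background on 5 and 4 of 20 arrays.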
